A study of Rattus norvegicus with 36 samples.

Results

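The nucleus accumbens (NAc) was compared with the prefrontal cortex of the same rats after 4 weeks of abstinence from cocaine, across every mature miRNA in the count table. The study sequenced small RNA from the prelimbic (PL) cortex, the infralimbic (IL) cortex and the NAc of 12 male heterogeneous stock rats, an outbred strain. The members here are the 12 libraries of the 4 abstinence rats out of 36 in all: 4 NAc, 4 PL and 4 IL libraries, chosen by the labelled region and group with no measured value used. For each miRNA the NAc was set against the mean of PL and IL within each rat, M170, M363, M472 and M456. These rats had self-administered cocaine in short and then long sessions before abstinence. The other groups served for values side by side: 4 cocaine-naïve rats and 4 rats in acute withdrawal, labelled 16 h after the last session. The study's text states another interval for this group. The naïve rats have no 4-week interval in the labels, so elapsed time and drug history cannot be told apart. Each region was dissected whole from frozen brain, so a library holds neurons, glia and vessel cells together, and fewer cells of a type and less RNA per cell cannot be told apart.

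A miRNA is a short RNA that guides silencing complexes to messenger RNAs, mainly through its seed, bases 2 to 8 from the 5′ end. It is cut from a hairpin whose arms can each give a mature product, named 5p and 3p, and many hairpins lie in introns of protein-coding genes. The NAc is the ventral part of the striatum and consists mainly of GABAergic medium spiny neurons that receive dopamine input. The PL and IL are layered cortex in which glutamatergic pyramidal neurons predominate and send axons to the NAc. Both are central to drug seeking in rats.

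The sequences below are those of the miRNAs on which the regional difference turned, with the seed in capitals, from RefSeq annotation of the rat assembly GRCr8. The first 6 were higher in the NAc and the last 6 lower.
miR-187-3p: uCGUGUCUuguguugcagccgg
miR-1298: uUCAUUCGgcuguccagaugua
miR-7a-5p: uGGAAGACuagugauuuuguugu
miR-7b: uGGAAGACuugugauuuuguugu
miR-708-3p: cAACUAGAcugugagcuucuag
miR-21-5p: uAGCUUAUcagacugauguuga
miR-128-2-5p: gGGGGCCGaugcacuguaaga
let-7c-5p: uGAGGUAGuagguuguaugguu
let-7b-5p: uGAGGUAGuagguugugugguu
miR-206-3p: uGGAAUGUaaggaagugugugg
miR-671: uCCGGUUCucagggcuccacc
miR-1224: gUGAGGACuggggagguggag

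The 12 libraries held 6192155 to 12233395 counts (median 11060341) over 723 miRNAs, of which 121 had no count in them and 419 passed the filter on low counts. The 419 held 99.9962% of the counts, and the 304 others were not tested. The RNA integrity number (RIN) ranged from 7.4 to 9.2. Levels are given as log2 CPM, the scaled count on a log2 scale. The first principal component of log2 CPM, with 55.5% of the variance, placed the NAc libraries of M170, M472 and M456 at 16.1, 20.1 and 20.7, the cortical libraries at -14.7 to -3.09, and the NAc library of M363 between them at 4.48. The labels cannot be checked with messenger RNA markers of the regions here because only miRNAs were measured. The NAc library of M363 correlated with the other NAc libraries at 0.961 to 0.977 (Pearson, across miRNAs), against 0.989 to 0.992 among those. Values without rat M363 are given for the main counts and for named results whose call this changed. They leave out its PL and IL libraries too, which had the lowest RIN of the 12, 7.4 and 7.9. A change can therefore not be traced to its NAc library alone. Which libraries shared a sequencing pool is not given in the sources used here.

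Regional differences were widespread. By edgeR's quasi-likelihood test with the rat as a block and a Benjamini-Hochberg adjusted p under 0.05, 238 of 419 miRNAs (56.8%) were called, 125 of them (29.8%) with more RNA in the NAc and 113 (27%) with more in the cortex. With library totals in place of TMM scaling, which moved the median of all miRNAs from 0.05 to 0.31 log2 units, 225 were called and 69.8% of them had more RNA in the NAc, against 52.5% with TMM. At least a 2-fold difference was reached by 86 of those higher and 53 of those lower, 20.5% and 12.6% of the 419. In 48 miRNAs (11.5%) all 4 NAc libraries lay above all 8 cortical libraries, and in 47 (11.2%) all lay below. Of the 238, 217 had the same sign in all 4 rats. The differences were smallest in M363: their median size over the 238 was 0.64 log2 units in M363 against 1.12, 1.10 and 1.44 in M170, M472 and M456. Without M363, 134 were higher and 118 lower, and 220 of the 238 calls were kept.

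**Figure D1:**
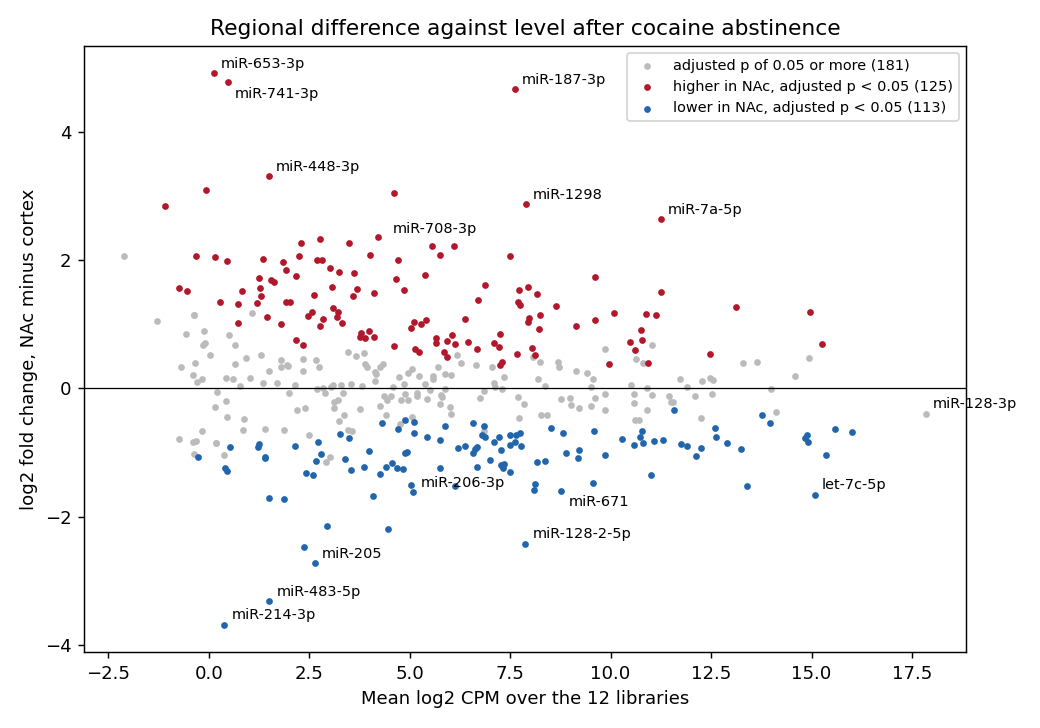
Each point is 1 of the 419 miRNAs tested in the abstinence rats, with its mean log2 CPM over the 12 libraries on the horizontal axis and its log2 fold change, NAc minus cortex, on the vertical axis. The 125 higher (red) and 113 lower (blue) miRNAs are spread over all levels, and miR-187-3p stands above every other miRNA of its level at 4.68.

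miR-187-3p had the largest difference of any miRNA with a mean level of at least 5 log2 CPM. Its level in the NAc was 11.04 log2 CPM in M170, 10.54 in M363, 10.57 in M472 and 10.78 in M456. In the PL of the same rats it was 6.24, 6.06, 6.27 and 6.19, and in the IL 5.49, 6.37, 5.97 and 5.81. No library of one region came near the other: the NAc counts were 18750 to 28075 and the cortical counts 292 to 916. The log2 fold change was 4.68 ± 0.19 (SE, n = 4 rats), 25.6-fold, with an adjusted p of 3.14e-09. The other arm of the same hairpin, miR-187-5p, was also higher, at 6.13 to 7.16 in the NAc and 3.07 to 4.05 in the cortex (log2 fold change 3.05 ± 0.18, adjusted p = 1.46e-07). M363 had the lowest NAc value of the 3p arm and the highest of the 5p arm.

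miR-1298 was next among the abundant miRNAs, and in the RefSeq annotation it lies within Htr2c, the gene of the serotonin 2C receptor. NAc levels were 9.60, 9.32, 9.89 and 10.38 log2 CPM in M170, M363, M472 and M456. They were 6.58, 6.98, 7.0 and 7.13 in the PL and 7.0, 7.5, 6.63 and 6.65 in the IL. All 4 NAc libraries exceeded all 8 cortical libraries by a wide margin, and the log2 fold change was 2.88 ± 0.22 (7.37-fold, adjusted p = 1.93e-06).

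The other miRNAs of the Htr2c gene moved with miR-1298. Of 7 in the table, miR-1298 counted, 5 were tested: miR-1298 and both arms of miR-448 and of miR-764. All 5 were higher in the NAc, beside 29.8% of all 419, with a median log2 fold change of 2.07 against 0.05 over all 419. The 5 were higher under every scaling tried. miR-448-3p was at 3.73, 3.14, 4.11 and 4.01 log2 CPM in the NAc and at -0.57 to 1.25 in the cortex (3.32 ± 0.31, adjusted p = 8.19e-06). miR-448-5p was at 3.77 to 4.82 in the NAc and 1.17 to 2.72 in the cortex (2.01 ± 0.25, adjusted p = 6.62e-05). miR-764-5p (2.07 ± 0.30) and miR-764-3p (2.05 ± 0.37) had adjusted p of 0.000209 and 0.0007. The level of the Htr2c messenger RNA was not measured here. Their sequences are shown because products of the same gene carry different seeds.
miR-448-3p: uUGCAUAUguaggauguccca
miR-448-5p: aACAUCCUgcauagugcugcca
miR-764-3p: gAGGAGGCcauaguggcaacugu

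miR-7a-5p, a neuronal and neuroendocrine miRNA that the circular RNA Cdr1as binds, was at 12.93, 11.68, 13.38 and 13.88 log2 CPM in the NAc of M170, M363, M472 and M456. The PL values were 10.82, 10.52, 10.73 and 10.81, and the IL values 10.13, 9.95, 10.40 and 9.71. M363 was the lowest NAc library but still above every cortical library. The log2 fold change was 2.65 ± 0.26 (adjusted p = 1.33e-05). miR-7b, which has the same seed and differs from miR-7a-5p by A10U (the base of miR-7a-5p, the position from the 5′ end, the base of miR-7b), was at 9.93 to 11.37 in the NAc and 8.47 to 9.44 in the cortex (1.74 ± 0.21, adjusted p = 6.57e-05). With these near-identical sequences, reads may be shared between them. Of 4 miR-7 products tested, 3 were higher and miR-7a-2-3p was at -0.11 (adjusted p = 0.66).

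miR-708-3p, within the teneurin gene Tenm4, differed between rats. Its NAc values were 6.84, 5.42, 7.40 and 8.16 log2 CPM in M170, M363, M472 and M456. The PL values were 5.47, 5.32, 4.71 and 5.44 and the IL values 3.65, 5.38, 4.52 and 4.44. The NAc of M363 was within the cortical range, while the other 3 NAc libraries were above it. The log2 fold change was 2.23 ± 0.41 with M363 (adjusted p = 0.000703) and 2.78 ± 0.26 without it. The other arm, miR-708-5p, was 0.57 ± 0.22 (adjusted p = 0.0402). That call ended without M363 (0.51, adjusted p = 0.0792) and in 4 other settings, the offset for base composition among them.

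miR-21-5p, a miRNA known for its induction in injured tissue and in glia, was at 7.26, 6.15, 8.15 and 8.41 log2 CPM in the NAc and 4.96 to 5.99 in the cortex (2.22 ± 0.33, adjusted p = 0.00025). miR-101b-3p, whose family targets the histone methyltransferase gene Ezh2 in human cells, had a log2 fold change of 2.08 ± 0.33, and its M363 value of 5.39 lay within the cortical range of 4.63 to 5.51. miR-495 and miR-410-3p, both of the imprinted Dlk1-Dio3 region, were higher by 2.07 ± 0.24 and 1.62 ± 0.15, with no overlap between regions. The other abundant miRNAs with the largest positive differences were miR-16-5p (1.76 ± 0.23), miR-26b-5p (1.58 ± 0.19) and miR-598-3p (1.53 ± 0.22). miR-26b-5p also overlapped between regions through M363.

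**Figure D2:**
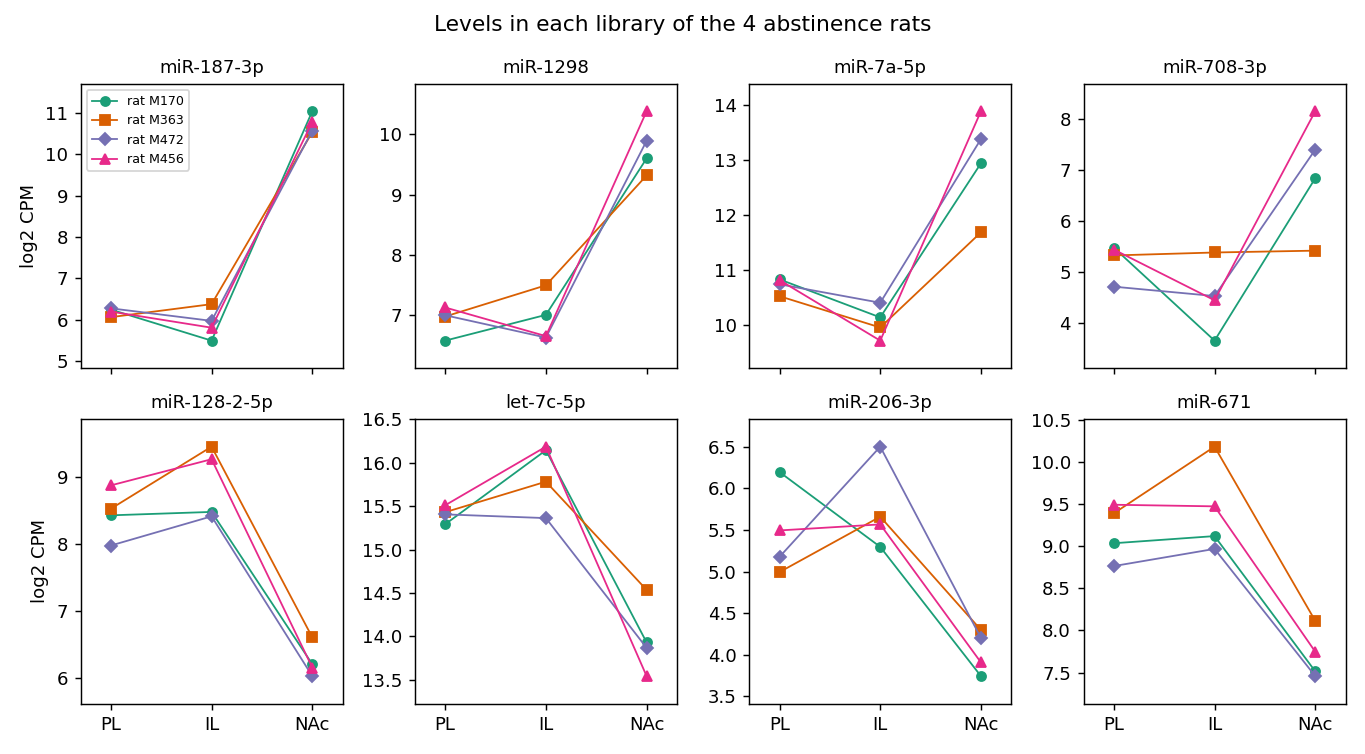
Level in log2 CPM of 8 miRNAs in the PL, IL and NAc, with 1 line per abstinence rat. The top panels hold the largest positive differences and the bottom panels the largest negative ones. miR-187-3p is near 6 in both cortical areas and above 10 in the NAc of all 4 rats, whereas the NAc value of M363 for miR-708-3p (5.42) is level with its own cortex.

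Among miRNAs lower in the NAc, miR-128-2-5p, from the less used arm of a hairpin in Arpp21, a gene of neurons, was the leading one. It was at 6.21, 6.61, 6.04 and 6.16 log2 CPM in the NAc of M170, M363, M472 and M456. The PL values were 8.44, 8.53, 7.98 and 8.88 and the IL values 8.49, 9.46, 8.42 and 9.27. All NAc libraries lay below all cortical libraries, with a log2 fold change of -2.43 ± 0.19, 5.38-fold lower (adjusted p = 2.73e-06). The same arm of the other miR-128 hairpin, miR-128-1-5p, was lower too (-1.67 ± 0.27, adjusted p = 0.000399). The main product of both hairpins, miR-128-3p, took 14.6% to 33.2% of the counts of a library and was the most abundant miRNA. Its NAc levels of 17.01 to 18.01 lay within the cortical range of 17.09 to 18.65 but for M363, the lowest, and the difference of -0.39 ± 0.27 was not called (adjusted p = 0.226). Without M363 it was -0.11 (adjusted p = 0.711). The 3p product does not show from which hairpin it was cut.

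Of the other abundant lower miRNAs, let-7c-5p and let-7b-5p are taken up with their family below. miR-206-3p, best known as a skeletal muscle miRNA, was at 3.74, 4.30, 4.20 and 3.91 log2 CPM in the NAc and at 4.99 to 6.50 in the cortex (-1.62 ± 0.30, adjusted p = 0.000705). miR-671 was at 7.51, 8.11, 7.46 and 7.75 in the NAc and 8.77 to 10.19 in the cortex (-1.60 ± 0.17, adjusted p = 2.22e-05). miR-1224, a mirtron, that is a hairpin released by splicing, was at 6.92, 7.94, 6.70 and 6.62 and at 7.98 to 9.45 (-1.59 ± 0.25, adjusted p = 0.000322). The regions did not overlap in any of these. miR-664-2-5p, miR-135a-3p, miR-455-3p, miR-125b-1-3p, miR-770-3p, which lies within the imprinted RNA gene Meg3, and miR-672-5p were lower, with log2 fold changes from -1.52 to -1.30. Of the 24 leading miRNAs, 12 in each direction, the regions did not overlap in 19, beside 48 above and 47 below among all 419. The 24 were picked for large differences with the same sign in all 4 rats, so little overlap follows from that choice. The difference was smallest in M363 in 22 of them, beside 160 of the 238 called. All 24 were also called without M363.

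Below a mean of 5 log2 CPM, the largest differences rested on few reads. miR-653-3p, within the calcitonin receptor gene Calcr, had 79 to 264 counts in the NAc and 0 to 12 in the cortex (log2 fold change 4.92 ± 0.44, adjusted p = 7.58e-06). miR-741-3p had 158, 144, 175 and 241 counts in the NAc of M170, M363, M472 and M456. Its cortical counts were 3, 0, 2, 2, 1 and 0 in M170, M363 and M472 but 169 and 88 in the PL and IL of M456, so M456 alone had no clear difference. In the other direction, miR-214-3p had 1 to 6 counts in the NAc and 18 to 41 in the cortex (-3.69). miR-483-5p, from an intron of the growth factor gene Igf2, was at -1.52, 0.00, -0.52 and -0.66 log2 CPM in the NAc and 1.32 to 4.95 in the cortex (-3.32 ± 0.55), and miR-205 was at -2.73.

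Among the 5 most abundant miRNAs, the differences were smaller. Beside miR-128-3p, these were miR-125a-5p (-0.69), miR-127-3p (-0.63), miR-328a-3p (-1.04) and miR-26a-5p (0.69). All 4 were called. With the offset for base composition described below, miR-26a-5p (0.0065) and miR-127-3p (-0.17) were no longer called, and miR-125a-5p (-0.69) and miR-328a-3p (-1.14) were. For miR-328a-3p, which has no matched sequence, the offset held no correction for its own bases.

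The let-7 family, whose members repress growth genes and accumulate as cells differentiate, split in direction although its members share the seed GAGGUAG. Of 8 members tested with that seed, 5 were lower in the NAc and 2 were higher, beside 27% and 29.8% of all miRNAs. Without M363, 5 were lower and 3 higher, let-7i-5p (0.67) being added. With library totals in place of TMM scaling, 4 were lower and 3 higher, and with an offset for base composition, described below, 5 were lower and none higher. The sequences are shown because the members differ in few bases after the seed.
let-7a-5p: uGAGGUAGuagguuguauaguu
let-7b-5p: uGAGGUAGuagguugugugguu
let-7c-5p: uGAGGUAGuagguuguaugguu
let-7d-5p: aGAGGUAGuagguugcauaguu
let-7e-5p: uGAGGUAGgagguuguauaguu
let-7f-5p: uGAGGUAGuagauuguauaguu
let-7i-5p: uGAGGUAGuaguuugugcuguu
miR-98-5p: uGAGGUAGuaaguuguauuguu
let-7c-5p was at 13.93, 14.54, 13.87 and 13.54 log2 CPM in the NAc of M170, M363, M472 and M456 and at 15.29 to 16.18 in the cortex, with no overlap (-1.66 ± 0.22, adjusted p = 0.00012). It differs from let-7a-5p by A19G, and let-7b-5p by A17G and A19G, in each case with the let-7a-5p base first and positions counted from the 5′ end. let-7b-5p was at 12.44, 13.15, 12.13 and 11.72 and at 13.51 to 14.57 (-1.53 ± 0.24). let-7e-5p, let-7a-5p and let-7d-5p were lower, at -0.85, -0.77 and -0.54. let-7f-5p, with G12A, went the other way. It was at 14.32, 12.85, 14.43 and 14.33 in the NAc and 11.72 to 13.39 in the cortex, where M363 alone fell within the cortical range (1.27 ± 0.21, adjusted p = 0.000447). miR-98-5p, with G11A and A19U, was higher by 1.04 ± 0.18, and let-7i-5p was at 0.47 (adjusted p = 0.053). Reads from members that differ by 1 base can be exchanged by a sequencing error or a permitted mismatch, so each member's value is uncertain.

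**Figure D3:**
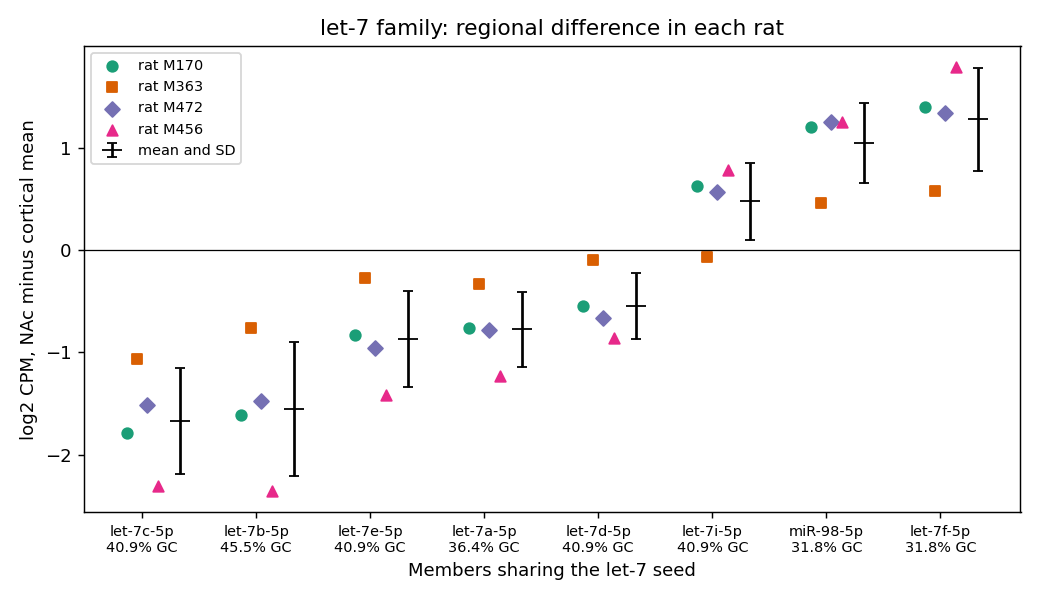
Difference in log2 CPM between the NAc and the mean of PL and IL for the 8 members with the let-7 seed, 1 point per abstinence rat with the mean and SD beside them, ordered by the fold change. The share of G and C bases under each name is 45.5% for let-7b-5p and 31.8% for let-7f-5p and miR-98-5p, and the differences run from -1.66 for let-7c-5p to 1.27 for let-7f-5p.

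Some other seed families moved more evenly, and some were split as well. The 4 miRNAs with the miR-25 seed AUUGCAC had 1 higher and 2 lower, from -0.92 to 1.32. With the offset for base composition none of these, miR-25-3p, miR-363-3p, miR-92a-3p and miR-92b-3p, was called. The 4 with the seed UAUACAA, all 3p products of let-7 hairpins, had 1 higher and 1 lower, from -0.85 to 1.33. Among them let-7a-1-3p and let-7c-2-3p have the same sequence and identical counts. With the offset let-7f-1-3p, the higher one, was at 0.46 and not called, and the others were lower. Of the miRNAs matched to a RefSeq sequence, the 4 with the miR-30 seed GUAAACA were higher: miR-30a-5p by 0.75, miR-30c-5p by 1.16, miR-30e-5p by 1.29 and miR-384-5p by 1.39. With the offset for base composition 3 of the 4 were. Of the family's other 5p products, miR-30b-5p was higher by 1.20, and miR-30d-5p, its most abundant member, was at -0.0033 (adjusted p = 0.983). The 3 with the miR-125 seed CCCUGAG were lower: miR-125a-5p, miR-125b-5p (-0.83) and miR-351-5p (-1.14). The 3 miR-29 members with the seed AGCACCA, which repress collagen genes, were higher by 0.53 to 0.80 in the fit as counted, and none was called with the offset. The 4 miR-181 members with the seed ACAUUCA ranged from -0.37 to 0.08, and none was called.

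The regional difference was related to base composition. A mature sequence was found for 377 of the 419 miRNAs (90.0%), and over these the log2 fold change correlated with the percentage of G and C at r = -0.49 (Pearson) and -0.55 (Spearman), given as a description because all 377 share the same libraries. Among 52 miRNAs with under 40% G and C, 36 had more RNA in the NAc and 3 less (median 1.23). Among 124 with 40% to 50%, 57 were higher and 12 lower (median 0.45). Among 136 with 50% to 60%, 20 were higher and 48 lower (median -0.13), and among 65 with 60% or more, 3 were higher and 40 lower (median -0.75). The relation was weakest in M363, at r = -0.16 against -0.47, -0.52 and -0.53 in M170, M472 and M456, and it was negative in each of the 12 rats of the study. A relation was also present within the cortex, at 0.45 for IL minus PL, where the sign depends on which area is subtracted.

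Read as shares of each library, miRNAs with under 40% G and C made up 15.5%, 17.3% and 18.2% of the counts in the NAc of M170, M472 and M456 and 8.67% in that of M363. In the 8 cortical libraries they made up 5.91% to 9.51%, so the NAc library of M363 lay within the cortical range. RIN in the NAc minus that in the cortex was 0.30, 0.45, 0.40 and -0.70 in M170, M363, M472 and M456. With RIN added to the fit, 230 miRNAs were called, 123 higher and 107 lower, and 227 of the 238 calls were kept. The part of base composition, RIN or library preparation in the regional differences was not tested. An offset fitted per library to remove the relation with base composition left 202 miRNAs called, 101 in each direction. Some miRNAs had no matched sequence, miR-598-3p, miR-328a-3p and miR-150-5p among them. These were given only the mean shift of each library, so their calls had no correction for their own bases. Of the 238 calls made as counted, 155 were kept in their direction, 82 were lost and 1 turned, and 46 others were gained. The offset also removes any true difference that goes with base composition. Of the 24 leading miRNAs, 23 were still called, and miR-26b-5p was not (0.37, adjusted p = 0.051). Of the 23 with a sequence, 10 had a log2 fold change smaller by over 1.5 times with the offset. miR-7a-5p went from 2.65 to 1.51, miR-7b from 1.74 to 0.62, miR-21-5p from 2.22 to 1.14, miR-101b-3p from 2.08 to 1.15, miR-495 from 2.07 to 1.08 and miR-410-3p from 1.62 to 0.75. miR-187-3p was at 5.14 and miR-1298 at 2.53.

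**Figure D4:**
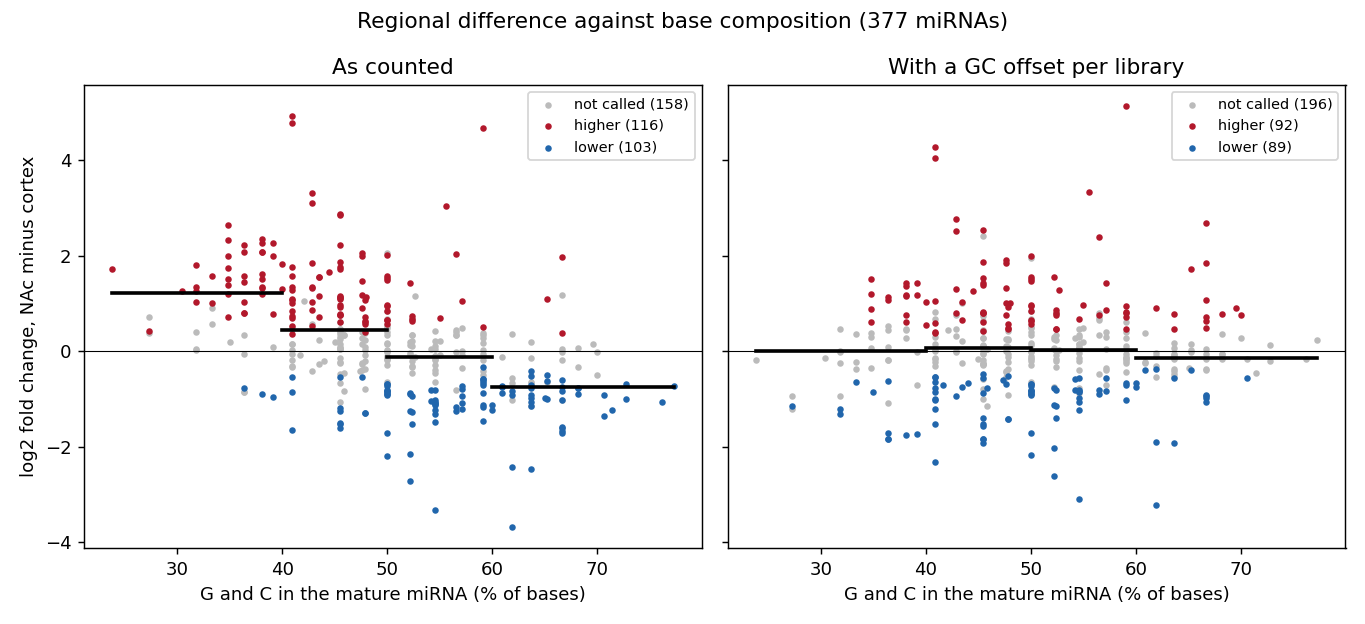
Log2 fold change, NAc minus cortex, against the percentage of G and C in the mature sequence for 377 miRNAs, as counted on the left and with the offset per library on the right. Black bars are medians within 4 ranges of base composition. On the left they fall from 1.23 under 40% to -0.75 at 60% and above, while on the right, where the relation has been removed by construction, they lie between -0.15 and 0.07.

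Arms of the same hairpin come from 1 transcript. Of 120 hairpins with both arms tested, both arms were higher in 18 and both lower in 16. In 9 the arms were called in opposite directions, in 56 only 1 arm was called and in 21 neither was. Both arms had the same sign in 78, and the correlation across hairpins was 0.50. The hairpins with both arms higher included miR-187, miR-448, miR-708, miR-764, miR-9a and miR-126a. Those with opposite calls were miR-127, miR-135a, miR-137, miR-194, miR-195, miR-204, miR-30b, miR-323 and miR-455, named after their values were seen. miR-137-3p, a neuronal product, was at 4.18, 2.33, 4.84 and 4.63 log2 CPM in the NAc and 0.93 to 2.71 in the cortex (2.0 ± 0.24). miR-137-5p was at 6.34, 7.07, 6.34 and 6.17 and at 7.0 to 8.55 (-1.20 ± 0.19). The regions overlapped in both through M363. The differing arms are shown to compare their bases.
miR-137-3p: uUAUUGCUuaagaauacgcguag
miR-137-5p: aCGGGUAUucuuggguggauaa
Across 102 hairpins with both sequences, the difference between arms in fold change correlated with their difference in G and C at -0.61. With the offset, 12 hairpins had both arms higher, 13 both lower and 5 opposite. Of the hairpins named above as higher in both arms, miR-187, miR-448 and miR-764 remained so. miR-126a and miR-708 kept the call of the 3p arm only, and neither arm of miR-9a was called.

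The miRNAs of the imprinted Dlk1-Dio3 region, a large cluster read from the maternal chromosome and active in brain, are described by their counts and median. Of 92 such miRNAs 75 were tested, and 33 were higher and 12 lower, beside 29.8% and 27% of all 419, with a median log2 fold change of 0.34 beside 0.05 for all 419. The counts were 30 higher and 7 lower with the offset for base composition, 38 and 5 with library totals, and 30 and 14 without M363. miR-495 and miR-410-3p had the largest differences among its abundant members. The most abundant, miR-127-3p, was lower, as was miR-770-3p, and miR-543-3p was at 0.40 (adjusted p = 0.052).

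Lists of miRNAs linked to cell types, and a list of Hox-cluster miRNAs, are read beside the shares of all miRNAs tested, 29.8% higher and 27% lower. Their members need not be specific to a cell type. miR-143 is in both the astrocyte and the vascular list, and miR-26a-5p of the astrocyte list is among the most abundant miRNAs. Of 27 neuron-enriched miRNAs tested, 7 were higher and 8 lower (median -0.12), near those shares. Of the defining miRNAs of neurons, both abundant in every library, miR-9a-5p was at 1.19 and miR-124-3p at -0.61. The call of miR-9a-5p ended with the offset for base composition (0.07) and with DESeq2, and that of miR-124-3p with library totals and without M472. Of the oligodendrocyte pair, miR-338-3p was higher by 2.27 and miR-338-5p was at 0.62 (adjusted p = 0.066). Of 15 astrocyte-enriched miRNAs 5 were higher and 3 lower, or 1 and 4 with the offset. The vascular list of 6 had 2 higher, both arms of the endothelial miR-126a (miR-126a-3p 1.14), and 1 lower, miR-145-5p of smooth muscle (-1.24). Also of smooth muscle, miR-145-3p was at 0.56, miR-143-3p at 0.46 and miR-143-5p at -0.67, none of them called. The number higher was 4 without M363, miR-143-3p at 0.95 among them, 0 without M456 and 1 with the offset. The immune list of 6 had 3 lower and none higher: miR-150-5p (-0.97), miR-150-3p (-1.23) and miR-146b-3p (-1.22). Its other members, miR-142-5p (0.90), miR-146a-5p (0.14) and miR-146b-5p (-0.09), were not called. With the offset 5 of the immune list were lower and none higher. Without M363, 1 of its members was higher and 3 were lower. Of 6 choroid plexus and ciliated cell miRNAs, miR-204-5p was higher (0.60) and miR-204-3p lower (-0.59), and both calls ended with the offset (0.28 and -0.14). No red blood cell miRNA passed the filter. The miR-200 and miR-183 list had 2 higher of 4, and the muscle list 2 lower of 4, or 4 lower with the offset. Without M363 the muscle list had 2 lower and 1 higher, miR-499-5p, which went from 0.58 (adjusted p = 0.14) to 0.96 (adjusted p = 0.0122). Of the Hox-cluster miRNAs, miR-10a-5p was higher (1.55) while miR-10b-5p was at -1.07 (adjusted p = 0.12). The rats ranged from -0.32 to 3.88 for miR-10a-5p, whose call ended in 6 settings, without M170 and without M456 among them. With the offset miR-10a-5p was at 1.02 and not called, and miR-10b-5p was called at -1.40. The part of differing cell make-up in the regional differences was not tested.

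Among miRNAs studied for roles in cocaine intake, 3 of 15 tested were higher and 6 lower, beside 29.8% and 27% of all miRNAs, and with library totals 3 were higher and 3 lower. miR-495 was the highest and miR-206-3p the lowest, and miR-181a-5p was at -0.37 (adjusted p = 0.056). Of the activity-induced pair miR-132 and miR-212, miR-132-3p was lower (-0.80 ± 0.20) and the 3 other products were not called. The miR-99 and miR-125 families had 7 of 11 lower and none higher, which with library totals became 4 lower and 1 higher, and without M363 6 lower and 1 higher. The rodent miR-344 family had no call among 7, of which 2 have identical counts. In it 2 were higher without M363, 3 with library totals, and 2 with the offset, which also left 1 lower. miR-101 had both members higher, but miR-101a-3p (1.01) was at -0.23 and not called with the offset, and its call also ended without M472 and without M456. Of 4 products of miR-221 and miR-222, 2 were lower.

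Each cortical area was also taken on its own, with the same NAc libraries in both comparisons. Against the PL, 167 miRNAs (39.9%) were called, 90 (21.5%) higher and 77 (18.4%) lower in the NAc, or 130 and 29 with library totals. This count depended on single rats: it was 87 without M170, 84 without M472, 93 without M456 and 184 without M363. Against the IL, 240 (57.3%) were called, 119 (28.4%) higher and 121 (28.9%) lower, or 141 and 84 with library totals. miR-187-3p was higher by 4.55 than in the PL and by 4.81 than in the IL. Between IL and PL no miRNA was called (0%), while 106 had an unadjusted p under 0.05, 25.3% of the 419.

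The same regional contrast was taken in the rats of the other groups, which share no library with the abstinence rats. In a fit to all 36 libraries with 457 miRNAs tested, 300 (65.6%) differed in naïve rats, 260 (56.9%) in withdrawal and 282 (61.7%) in abstinence. The split was 158 higher (34.6%) and 142 lower (31.1%) in naïve rats and 137 (30%) and 123 (26.9%) in withdrawal, or 190 and 87, and 197 and 59, with library totals. Across the 457, the abstinence fold changes correlated with those of naïve rats at 0.94 and with those of withdrawal at 0.92. All 24 leading miRNAs had the same sign in all 4 rats of both other groups and were called in each. miR-187-3p was higher by 4.71 ± 0.36 log2 CPM in abstinence, 4.09 ± 0.47 in naïve rats and 4.01 ± 0.39 in withdrawal (mean ± SD of 4 rats). Its difference between abstinence and naïve was 0.63 ± 0.36 (SE) with an unadjusted edgeR p of 0.0908, and between abstinence and withdrawal 0.73 ± 0.36 with one of 0.0512.

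No regional difference was called as changed by abstinence. Against naïve rats 0 of 457 passed an adjusted p of 0.05 with edgeR, limma-voom or DESeq2, and 10, 10 and 12 had an unadjusted p under 0.05, or 2.19% with edgeR. Against withdrawal the adjusted count was 0 with all 3 tools, and 5, 5 and 4 had an unadjusted p under 0.05, or 1.09%. The lowest adjusted p was 1 and 0.994. Among 216 miRNAs with a level of at least 5 log2 CPM the median SE of this change was 0.27 in both comparisons. The lowest unadjusted p against naïve were those of miR-344b-5p (0.57), miR-369-3p (-2.39) and miR-496-5p (1.03). Against withdrawal they were those of miR-542-5p (1.67), miR-743a-3p (-3.18) and miR-340-5p (0.48).

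**Figure D5:**
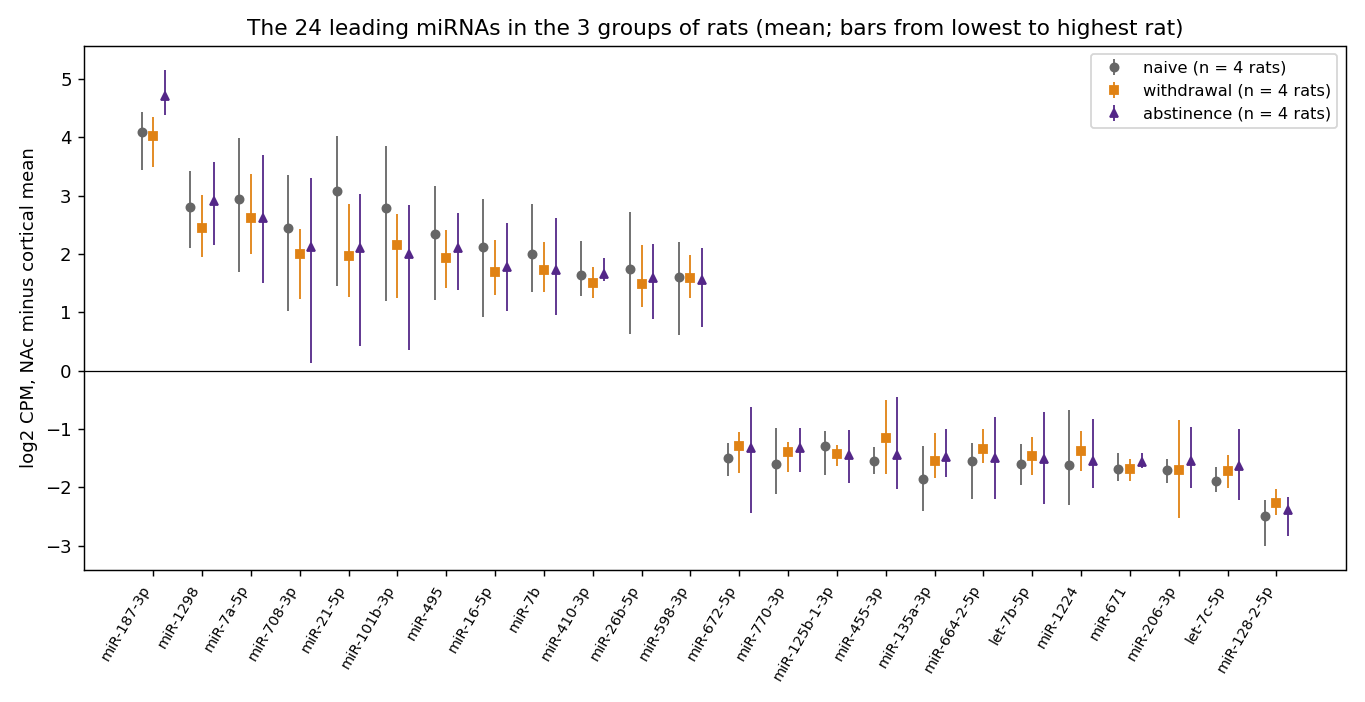
Difference in log2 CPM between the NAc and the mean of PL and IL for the 24 leading miRNAs, as the mean of 4 rats per group with bars from the lowest to the highest rat. The marks of naïve, withdrawal and abstinence rats lie on the same side of 0 for all 24, with miR-187-3p at 4.09, 4.01 and 4.71.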

How the data were processed

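The authors prepared small RNA libraries from the dissected regions and ran CAP-miRseq to trim, align and count reads for each mature miRNA. Their raw counts were used as deposited. The labels and the study name different RNA kits and genome builds (the submitters' processing notes give mRatBN7.2, rn7), so no coordinates are given. The deposited table holds 36 libraries, each tied to a rat by the labels and the study's list of RNA samples, except 1 naïve NAc library tied to its rat by the design.

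miRNAs with few reads were left out by filterByExpr, at a minimum count of 10 and a minimum total of 15, libraries scaled by TMM, and log2 CPM computed with a prior count of 0.5. The 12 abstinence libraries were fitted with edgeR 4.0.16 in R 4.3.3, by the quasi-likelihood test with the rat as a block. The contrast was NAc minus the mean of PL and IL, and Benjamini-Hochberg adjusted p-values were computed over all miRNAs tested. The other groups were fitted together with them, with 36 libraries and a block per rat. Standard errors are approximate, from the fold change and the F statistic. Alternatives used limma 3.58.1 and DESeq2 1.42.0, and figures used matplotlib 3.10.9 in Python 3.11.15. The fit was also run on simulated counts, with the same dispersion for every miRNA and a rat effect common to all regions. The simulation held no relation with base composition and no library placed between the regions, so it does not bear on these.

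The 3 regions of a rat come from the same animal. Their deviations from the region means correlated with a median r of 0.27 (-0.06 to 0.47, 11 of 12 pairs above 0), against -0.10 between different rats. In the 18 pairs of libraries of the same region chi-square over its degrees of freedom was 243.5 or more, so no pair agreed within sampling noise. At these depths counting error is small for all but the least abundant miRNAs. Nothing identifies litters or cages. With the rat as a block, differences in level between rats are removed. The p-values set the regional difference against how the region values vary from rat to rat, with PL and IL as separate libraries.

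The members and lists were chosen with earlier results of these data known. The miRNAs named are the 12 with the largest called difference in each direction (mean log2 CPM of at least 5, same sign in all 4 rats), the 5 most abundant, up to 3 of the most abundant of each list, the other arms of the leading hairpins, the 3 largest called differences in each direction under a mean of 5, and the 3 lowest p of each comparison of groups where none was called. Other miRNAs named, such as miR-128-1-5p, miR-137-3p and members of the seed families, were chosen after their values were seen. The offset for base composition, a loess of each library's deviation on the percentage of G and C, was also chosen after seeing the data.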

Additional observations from a re-analysis of the deposited data

Results flagged for a closer look

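For each of 102 named miRNAs, the NAc minus cortex difference in log2 CPM of each of the 4 abstinence rats was examined for a rat far from the other 3, by the gap to the nearest divided by the whole range. In 5 miRNAs a rat stood apart by this measure, and chance gives about 1 in 20. miR-200c-3p, of a family of epithelial miRNAs, was at 0.18 in M363 and at -0.69 to -0.54 in the others. miR-764-5p, of the Htr2c gene, was at 2.77 in M363 and 1.84 to 1.89 in the others. miR-770-5p, of the Meg3 gene, was at 0.34 in M363 and -1.24 to -1.12 in the others. miR-132-3p, which neuronal activity induces, was at -1.39 in M472 and -0.67 to -0.57 in the others. miR-483-5p, of the Igf2 gene, was at -5.34 in M170 and -2.82 to -2.32 in the others.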

How the results depend on the processing

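The number of miRNAs called between NAc and cortex after abstinence stayed within 1.5 times of 238 under every alternative run, from 186 to 252 without 1 rat and from 202 to 282 under the other settings. Without 1 rat the counts were 84 to 184 against the PL, 177 to 254 against the IL, 244 to 288 in naïve rats and 227 to 238 in withdrawal, and 0 for both comparisons between groups; against the PL they were 87 without M170, 84 without M472 and 93 without M456, with fewer samples in each. Without the replicate block, which pairs the regions of a rat, 224 miRNAs were called (118 higher, 106 lower), and 144 against the PL, 231 against the IL, 283 in naïve rats and 242 in withdrawal. It changed no count by more than 1.5 times.

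Of the 1732 values of single named miRNAs under 17 settings, 1545 kept their direction and side of the threshold, 71 lost their call, 57 gained one and 42 changed sign without being called on either side. The other 17 changed sign and were called on at least 1 side, all with the offset for base composition, in the 12-library and the 36-library fit. These were miR-1-3p (-1.31 and -1.31), miR-101a-3p (-0.23 and -0.23), miR-135a-5p (-0.13 and -0.13), miR-146a-5p (-0.55 and -0.56), miR-29a-3p (-0.15 and -0.16), miR-340-5p (-1.14 and -1.13), miR-369-3p (-0.18 and -0.16), miR-499-5p (-0.64 and -0.64) and, in the 36-library fit alone, miR-26a-5p (-0.0045). By its construction the offset lowers miRNAs poor in G and C. Under the low depth of miRNAs such as miR-483-5p, few reads set the values.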

Other observations

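The counts of miR-741-3p in the cortex of rat M456 were 169 in the PL and 88 in the IL. In the 22 cortical libraries of the other 11 rats the median was 2.5 and the highest 46, while their NAc libraries held at least 144 and a median of 216. In mouse this miRNA belongs to an X-linked cluster known mainly from testis. Other members of that cluster had the same pattern in M456, chosen after their values were seen: miR-871-3p had 73 and 52 counts in its PL and IL against a median of 1 and a highest value of 46 in the other cortical libraries. miR-743a-3p had 14 and 10 counts against a highest value of 2, and miR-881-3p 7 and 5 against a highest value of 2. In the NAc of the other rats these had 16 to 136, 6 to 60 and 1 to 17 counts. The cause was not tested.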
